A study of Mus musculus with 8 samples.

Results

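The 8 genes *Lpcat1*, *Lpcat2*, *Lpcat3*, *Lpcat4*, *Mboat1*, *Mboat2*, *Mboat7* and *Lpgat1* encode lysophospholipid acyltransferases of the Lands cycle, and are not a complete list of such enzymes. They were examined in the liver of *Agpat3* wild-type (WT) and *Agpat3* knockout (KO) mice. The rule that chose them names the genes and uses no signal, but the choice was made with earlier results of these data known. Their probes were found through the transcript accession of each probe in a mouse RefSeq gene table, which gave 13 of the 56605 probes on the array and 8 of 22911 named genes. The mice were C57BL/6 males at the age of 10 weeks, with 4 of each genotype, and the total RNA of each liver was labeled with Cy3 and measured on its own one-color Agilent array. The KO is global, so that the gene was lost in every tissue and not only in the liver. All mice were untreated as far as the labels state, and whether WT and KO mice were littermates is not given in the sources used here.

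In the Lands cycle, a phospholipase A2 removes a fatty acid from a membrane phospholipid, and a lysophospholipid acyltransferase puts a new acyl chain from an acyl-CoA onto the resulting lysophospholipid. The enzymes differ in the head groups and acyl chains they prefer, and so set which fatty acids the membrane holds. LPCAT3 and MBOAT7 carry arachidonic acid (ARA), LPCAT1 carries palmitate, and LPCAT2 can also make platelet-activating factor in macrophages. AGPAT3 itself is not a Lands cycle enzyme of this group. It acylates lysophosphatidic acid in the de novo pathway and prefers docosahexaenoic acid (DHA). The comparison of the genotypes asks whether the mRNA of the chosen remodeling enzymes differed in a liver that lacks AGPAT3.

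Signals are given as log2 of the processed intensity minus the 75th percentile (P75) of the same array, so that 0 is the brightness of the probe at that percentile. Probes differ in brightness for the same amount of RNA, and levels were not compared between genes. A probe was tested when all 4 arrays of either genotype showed it well above background. It was called at a difference of more than 1.5-fold together with an adjusted p under 0.2 from limma. Of the 29069 probes tested, 484 were called, or 1.67%. *Agpat3*, the targeted gene, was called lower, with -6.12 as its log2 fold change (limma adjusted p = 4.46e-07, standard error 0.14). Both of its probes stayed well above background on all KO arrays, and where they lie relative to the deleted part is not given in the sources used here. On the slide, row 1 held all WT arrays and row 2 all KO arrays, and position and genotype cannot be told apart. The summed signal of 9 hepatocyte markers, albumin among them, lay between 0.93 and 1.04 of the WT mean in the WT livers and between 0.93 and 0.98 in the KO livers, and 0 of the 9 were called. In bulk liver, fewer cells of a type and less RNA per cell cannot be told apart.

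None of the 8 acyltransferase genes was called in either direction. *Lpcat3* had the largest difference, *Lpgat1* was next, and *Mboat7*, *Lpcat4* and *Lpcat2* were within 0.14 of 0 on the log2 scale. *Lpcat1*, *Mboat1* and *Mboat2* were at or near the background and did not pass the filter for the test. Of the 13 probes, 8 probes of 5 genes were tested, and 0 of the 8 were called. Over all genes read from their brightest probe, 1.01% were called higher and 0.754% lower in KO liver. Over all probes tested, 13.3% had an unadjusted limma p under 0.05, and among the 8 probes these were the 2 probes of *Lpcat3*. The groups of 4 mice did not overlap for 8.86% of the probes tested, against 0 of the 8. A p that misses the threshold does not show that the genotypes were alike, so the interval of each difference is given with it.

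**Figure D1:**
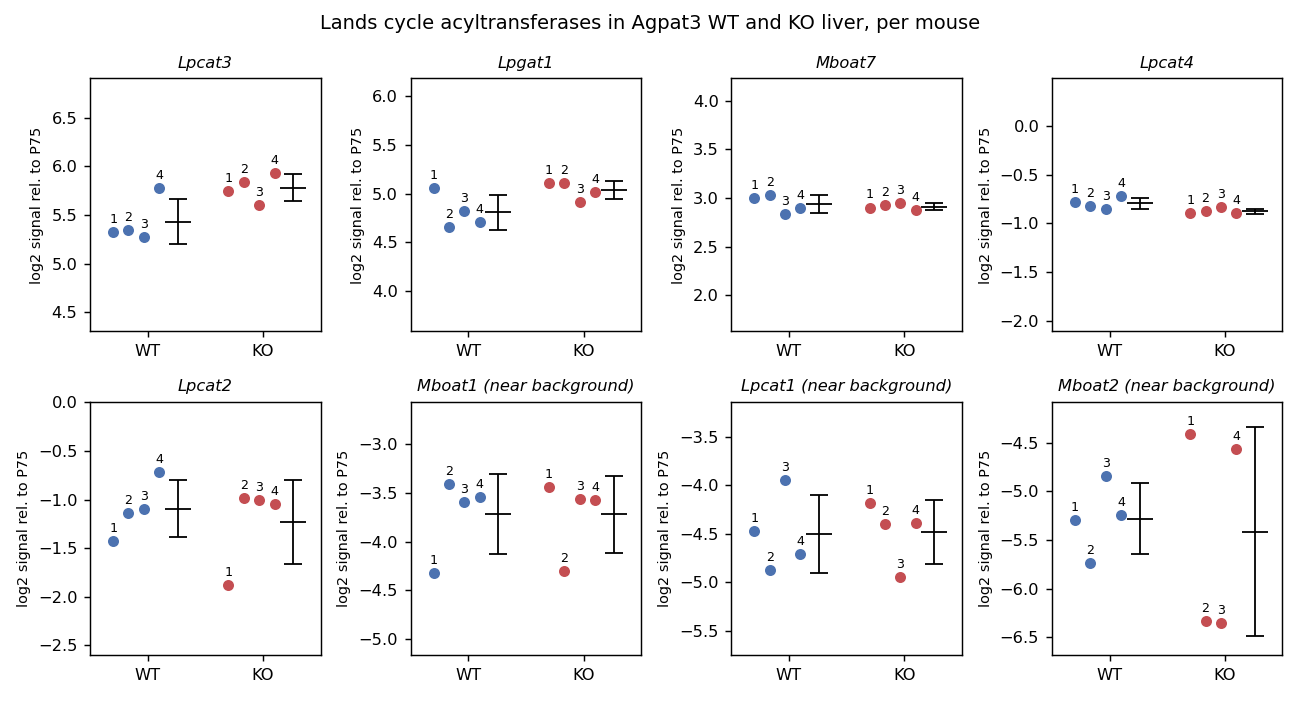
Signal of the brightest probe of each of the 8 acyltransferase genes in every mouse, as log2 relative to P75 (y axis, the same span of 2.6 in every panel), for WT (blue) and KO (red), with the replicate number above each point and the mean and SD of 4 mice at its right. The WT and KO points overlap in every panel, and the 3 genes marked as near background were not tested.

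*Lpcat3* encodes the main hepatic acyltransferase that puts linoleic acid and ARA into phosphatidylcholine and phosphatidylethanolamine. It is known as a target of the liver X receptor (LXR) and as an enzyme needed for the lipidation of lipoproteins. Its brightest probe, to transcript NM_145130, read 5.32, 5.35, 5.28 and 5.78 in WT liver (log2 relative to P75) and 5.75, 5.84, 5.60 and 5.93 in KO liver. The KO signals were all above the 3 lower WT signals, and WT replicate 4 reached into the KO range, above KO replicates 1 and 3. The mean went from 5.43 ± 0.23 in WT to 5.78 ± 0.14 in KO (SD, n = 4 each), a log2 difference of 0.35 (standard error 0.13, 95% interval 0.06 to 0.64), or 1.27-fold. Its adjusted p was 0.295, and the exact permutation test over mice (two-sided) gave p = 0.0857, where 0.0286 is the smallest p that 4 against 4 allows.

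The other probe of *Lpcat3*, to the same transcript, gave 4.00, 4.00, 4.07 and 4.40 in WT and 4.47, 4.57, 4.29 and 4.46 in KO liver. Here 3 of 4 KO mice lay above the highest WT mouse, again replicate 4, and KO replicate 3 lay below it. The log2 difference was 0.33 (standard error 0.11, 95% interval 0.08 to 0.58), or 1.26-fold, with an adjusted p of 0.255 and p = 0.0571 in the exact permutation test. The probes followed each other closely from mouse to mouse. The brighter minus the dimmer lay between 1.21 and 1.47 on the log2 scale in the 8 mice (SD 0.08). Because they measure the same transcript in the same RNA, they are not independent evidence of the difference.

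The 300 bases around the annotated start of *Lpcat3* are shown because it had the largest difference of the 8 genes, beside those of *Mboat7*, the other ARA-carrying enzyme, whose difference was the smallest among brightest probes. They run from 250 bases before to 50 after the start, 5′ to 3′ on the strand of the gene, and come from RefSeq annotation of GRCm38.p6. Capitals mark every match, on either strand, to a GC box (GGGCGG, read as CCGCCC on the other strand) or an NF-Y box (CCAAT, or ATTGG), where matches that overlap run together.
Lpcat3, chr6:124662854-124663153, plus strand: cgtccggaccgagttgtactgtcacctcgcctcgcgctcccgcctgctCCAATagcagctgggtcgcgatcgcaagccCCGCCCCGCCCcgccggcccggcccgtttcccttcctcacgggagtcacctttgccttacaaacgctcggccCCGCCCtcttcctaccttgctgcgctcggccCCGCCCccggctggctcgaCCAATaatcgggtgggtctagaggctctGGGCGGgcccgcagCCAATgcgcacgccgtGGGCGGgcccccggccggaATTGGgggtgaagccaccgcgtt
Mboat7, chr7:3692937-3693236, minus strand: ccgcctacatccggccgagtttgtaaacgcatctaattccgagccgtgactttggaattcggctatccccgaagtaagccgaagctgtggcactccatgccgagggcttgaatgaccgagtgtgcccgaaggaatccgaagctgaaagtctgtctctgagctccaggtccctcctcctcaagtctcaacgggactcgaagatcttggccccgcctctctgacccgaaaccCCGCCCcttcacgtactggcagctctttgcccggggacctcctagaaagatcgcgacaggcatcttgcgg
The *Lpcat3* window holds 6 matches to the GC box and 4 to the NF-Y box, and the *Mboat7* window holds 1 and 0. The *Mboat2* window also holds 6 GC boxes, with 2 NF-Y boxes, and the other windows hold 2 to 4 GC boxes. Of 32851 such windows in the mouse annotation, 1.35% held at least 6 GC boxes and 1.06% at least 4 NF-Y boxes. GC boxes are letters that the SP factors can bind, and NF-Y is a partner of sterol regulatory element-binding proteins (SREBPs) at many lipid genes. All 8 genes had a window, and *Lpgat1* had 2, so that 9 windows were searched. Every one of the 9 held a GC box, against 35.7% of all windows, and the GC content of the 9 lay between 54.67% and 79.67%, above the median of 52.67% over all windows. An NF-Y box was found in 4 of the 9, those of *Lpcat3*, *Mboat2*, *Lpcat2* and *Mboat1*, against 37.4% of all windows. Neither the sterol regulatory element letters TCACNCCAC, present in 1.24% of all windows, nor the E-box CACGTG, present in 7.15%, was in any of the 9. A match in such a short window is a description of letters and not a measured binding site.

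**Figure D2:**
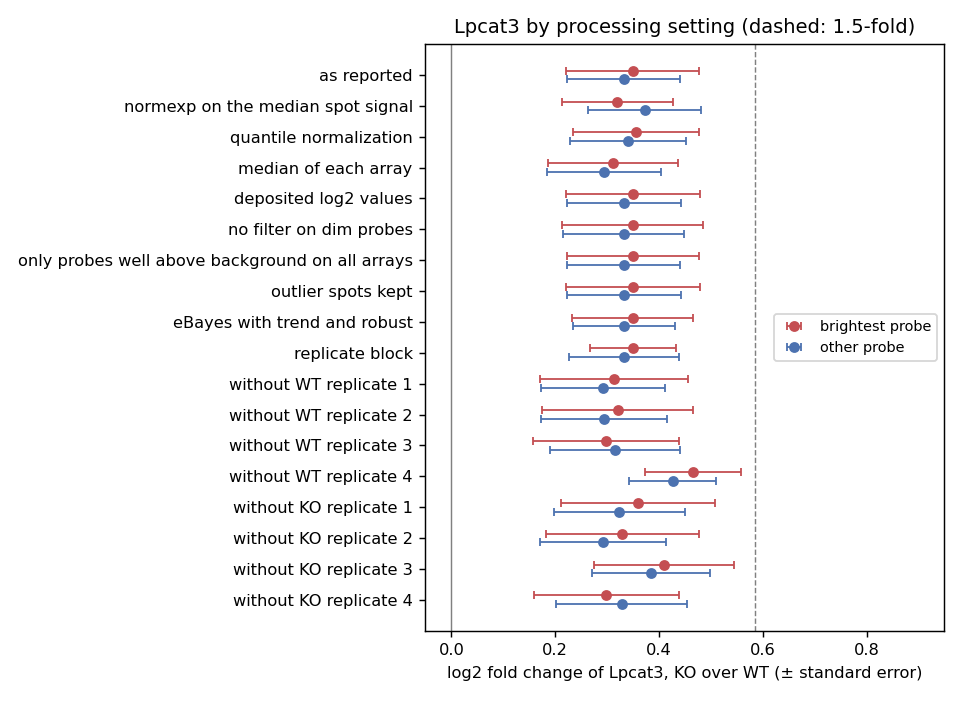
Log2 fold change of *Lpcat3*, KO over WT (x axis), with its standard error, under each of 18 processing settings (y axis), for the brightest probe (red) and the other probe (blue). All values are above 0 and below the dashed line at 1.5-fold, and the largest, 0.47, was obtained without WT replicate 4.

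The difference of *Lpcat3* was above 0 and under 1.5-fold in each of the 18 settings. For the brightest probe it lay between 0.30 and 0.47 on the log2 scale, with adjusted p between 0.115 and 0.586, and an unadjusted limma p under 0.05 in 13 of 18. For the other probe it lay between 0.29 and 0.43, with adjusted p between 0.108 and 0.532, and an unadjusted p under 0.05 in 18 of 18. The 18 settings reuse the same mice, so these counts are not independent evidence of the difference. The largest difference of the brightest probe, 0.47 with an adjusted p of 0.115, was that without WT replicate 4.

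*Fads1*, *Fads2*, *Elovl5* and *Elovl2* encode the desaturases and elongases that make ARA and DHA, the acyl chains that LPCAT3 and MBOAT7 or AGPAT3 then use. In KO liver *Elovl5* was 2.03-fold higher (limma adjusted p = 0.0355), *Fads2* 1.96-fold (0.0199) and *Fads1* 1.67-fold (0.0355), all called. These calls held when any 1 array was left out. *Elovl2* was 1.44-fold higher (limma adjusted p = 0.0409), short of the fold threshold. The differences of these 4 genes were then set against that of *Lpcat3* within each mouse, a comparison added with their values known. The difference of *Elovl5* exceeded that of *Lpcat3* by 0.67 on the log2 scale, and in the exact permutation test p was 0.0286, or 0.0572 adjusted over the 4 enzymes. That of *Fads2* exceeded it by 0.62, with the same p and adjusted p. For both, the ratio to *Lpcat3* was higher in all 4 KO mice than in any WT mouse, for *Fads2* by less than 0.01 between the nearest mice. The excess was 0.39 for *Fads1* (exact permutation p = 0.143, adjusted 0.191) and 0.18 for *Elovl2* (exact permutation p = 0.429 before and after adjustment), and the mice overlapped. None of the 4 excesses over *Lpcat3* passed 0.05 after adjustment, and the exact permutation p of 0.0286 is the smallest the design allows.

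The genes whose brightest probe followed *Lpcat3* most closely over the 8 mice were *Fam71f2* (Pearson r = 0.97), *Tenm3* (r = 0.97) and *Exoc4* (r = 0.97), none of them called. This is a description over 8 arrays that share the genotype difference and the high value of WT replicate 4, picked from 14067 genes.

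*Mboat7* encodes the enzyme that puts ARA into phosphatidylinositol. Its probe, to transcript NM_029934, gave 3.00, 3.03, 2.83 and 2.90 in WT and 2.90, 2.93, 2.94 and 2.87 in KO liver. The KO signals all lay inside the WT range. The mean was 2.94 ± 0.09 in WT and 2.91 ± 0.03 in KO (SD, n = 4 each), a log2 difference of -0.03 (standard error 0.07, adjusted p = 0.902). Its 95% interval from -0.18 to 0.13, or 0.88-fold to 1.09-fold, holds no change as large as 1.5-fold. The sign is not settled, since the difference was 0.00 without WT replicate 2.

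*Lpgat1* encodes an acyltransferase first described on lysophosphatidylglycerol that also places stearate in phosphatidylethanolamine. Its brightest probe, to transcript NM_172266, gave 5.06, 4.66, 4.82 and 4.70 in WT and 5.11, 5.11, 4.92 and 5.02 in KO liver. WT replicate 1 lay within the KO range, and the other 3 WT mice lay below all KO mice. The mean was 4.81 ± 0.18 in WT and 5.04 ± 0.09 in KO (SD, n = 4 each), and the log2 difference was 0.23 (standard error 0.10, 95% interval -0.0046 to 0.46), or 1.17-fold. The adjusted p was 0.385, and the exact permutation test gave p = 0.0857.

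The other *Lpgat1* probe, assigned to transcript NM_001134829, gave 4.996, 4.50, 4.64 and 4.16 in WT and 4.95, 4.77, 4.66 and 4.49 in KO liver. All 4 KO values lay inside the WT range, which ran from replicate 4 up to replicate 1. Its log2 difference was 0.14 (standard error 0.18, 95% interval -0.26 to 0.55, adjusted p = 0.781). This value rested on single mice, and was 0.28 without WT replicate 1, 0.0056 without WT replicate 4, 0.067 without KO replicate 1 and 0.22 without KO replicate 4. Brighter minus dimmer ranged from 0.06 to 0.54 between mice (SD 0.18), a wider spread than for *Lpcat3*, with the largest gaps in replicate 4 of both genotypes.

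*Lpcat4* encodes an acyltransferase of the AGPAT family that acts on lysophosphatidylethanolamine and lysophosphatidylcholine. Its probe, to transcript NM_207206, gave -0.78, -0.82, -0.85 and -0.72 in WT and -0.90, -0.87, -0.84 and -0.90 in KO liver. Of the KO mice, 3 lay below the lowest WT mouse, and KO replicate 3 lay just above it. The log2 difference was -0.08 (standard error 0.06, 95% interval -0.22 to 0.06), or 0.94-fold, with an adjusted p of 0.62 and p = 0.0571 in the exact permutation test. *Lpcat4* varied little. Its SD between mice of a genotype, 0.04 on the log2 scale, was at the 1.57 percentile of all probes tested, and limma, which draws each probe's spread toward that of the other probes, gave an unadjusted p of 0.213. With its own spread alone, in the unpaired test of the study's other figures, *Lpcat4* had an unadjusted p of 0.0403 and an adjusted p of 0.356.

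*Lpcat2* encodes the inducible enzyme of inflammatory cells that makes platelet-activating factor. Its brightest probe, to transcript NM_173014, gave -1.43, -1.14, -1.10 and -0.72 in WT and -1.88, -0.99, -1.01 and -1.05 in KO liver. KO replicate 1 was the lowest of the 8 mice, and the other 3 KO mice lay inside the WT range. The mean was -1.09 ± 0.29 in WT and -1.23 ± 0.43 in KO (SD, n = 4 each), a log2 difference of -0.14 (standard error 0.23, adjusted p = 0.843). Without KO replicate 1 the difference was 0.08. The 95% interval, -0.66 to 0.39 or 0.63-fold to 1.31-fold, was the widest of the tested members and reaches past 1.5-fold lower. The other probe gave -1.72, -1.38, -1.46 and -1.24 in WT and -1.85, -1.21, -1.37 and -1.30 in KO liver, a log2 difference of 0.02 (standard error 0.16, adjusted p = 0.97). KO replicate 1 was lowest there too.

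**Figure D3:**
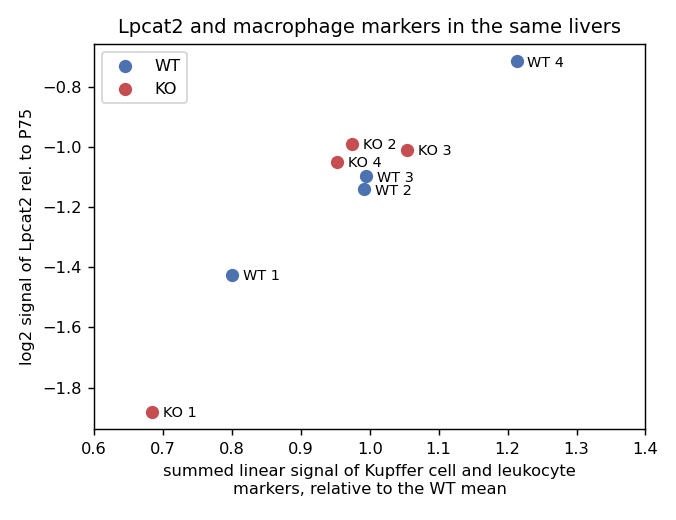
Log2 signal of the brightest *Lpcat2* probe relative to P75 (y axis) against the summed linear signal of 17 Kupffer cell and leukocyte markers relative to the WT mean (x axis), 1 point per mouse. KO replicate 1, at 0.68, has the lowest marker sum and the lowest *Lpcat2*, and WT replicate 4, at 1.21, has the highest of both.

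Kupffer cells are the macrophages of the liver. Of 18 Kupffer cell and leukocyte markers, 17 were tested, and their summed signal relative to the WT mean was 0.80, 0.99, 0.99 and 1.21 in WT and 0.68, 0.97, 1.05 and 0.95 in KO liver. Its brightest genes, *Cd5l*, *Csf1r* and *Clec4f*, dominate this linear sum. The mouse lowest in the brightest *Lpcat2* probe, KO replicate 1, was also lowest in this sum, WT replicate 1 was next lowest in both, and WT replicate 4 was highest in both. On the other *Lpcat2* probe the order at the low end was the same, and KO replicate 2 was highest. The defining markers *Adgre1*, *Clec4f*, *Csf1r*, *Cd68* and *C1qa* were all tested, and none was called. Their part in the spread of *Lpcat2* was not tested. The list held 1 called gene, while 1.76% of all genes were called in either direction. It was *Marco*, a scavenger receptor, which was 2.34-fold lower in KO liver (log2 fold change -1.22, standard error 0.25, limma adjusted p = 0.0983). That call was lost without WT replicate 3 (adjusted p = 0.21), without KO replicate 2 (adjusted p = 0.213) and with no filter on dim probes (adjusted p = 0.233).

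The remaining 3 genes were dim. *Lpcat1*, known from surfactant synthesis in the lung, was well above background on 1 of 4 WT arrays and 0 of 4 KO arrays, with log2 signals from -4.87 to -3.95 in WT and from -4.94 to -4.18 in KO. *Mboat1*, an enzyme that puts oleate into lysophosphatidylethanolamine and lysophosphatidylserine, was well above background on 3 of 4 arrays of each genotype. It gave -4.32, -3.41, -3.60 and -3.54 in WT and -3.44, -4.30, -3.56 and -3.57 in KO liver, and WT replicate 1 and KO replicate 2 were the low ones. *Mboat2*, which also uses oleate, had 3 probes, and none was well above background on any of the 8 arrays. The linear signals of these 5 probes, after background correction, lay between 3.10 and 27.4 intensity units. The median local background was 27 to 32 units per array, and it is not a floor for signals already corrected for background. No fold change is given for these genes. They were not tested, so whether they differed between the genotypes is not known. *Mboat1* passed the filter only when WT replicate 1 or KO replicate 2 was left out, each time through the genotype of the omitted mouse. Omitting that low mouse also sets the sign of the difference, so no difference is read from these settings.

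**Figure D4:**
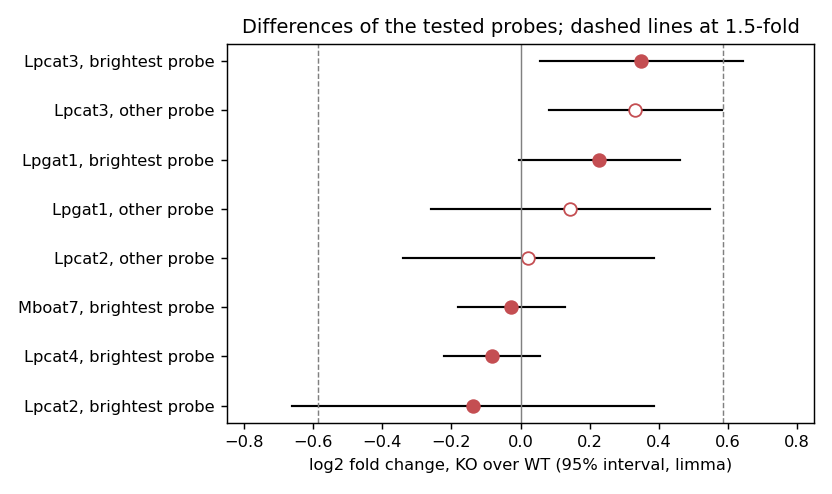
Log2 fold change, KO over WT (x axis), of the 8 tested acyltransferase probes (y axis) with its 95% interval from limma, filled for the brightest probe of a gene and open for the other. Only the intervals of the *Lpcat3* probes lie wholly above 0, and only those of the brightest *Lpcat3* probe and the brightest *Lpcat2* probe pass the dashed lines at 1.5-fold.

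The intervals set how large a difference these 8 mice leave possible for each gene. They lay inside 1.5-fold in both directions for *Mboat7*, for *Lpcat4* and for both probes of *Lpgat1*. The brightest *Lpcat3* probe allowed up to 1.56-fold higher and the brightest *Lpcat2* probe down to 0.63-fold. The dimmer probe of *Lpcat3* stayed just inside 1.5-fold, and the dimmer probe of *Lpcat2* lay between 0.79-fold and 1.31-fold. The spread between mice differed widely among the genes. The SD within genotypes was 0.04 for *Lpcat4* and 0.07 for *Mboat7*, both far under the median of 0.17 over all probes tested. It was 0.14 and 0.28 for the probes of *Lpgat1*, 0.19 and 0.16 for those of *Lpcat3*, and 0.37 and 0.25 for those of *Lpcat2*.

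Genes that work beside the acyltransferases were read from a list of 28 remodeling partners, made of lysophospholipases, lipases, lysophospholipid and acyl-CoA handling proteins and acyl-CoA synthetases. Of these, 26 were tested, 2 were called higher and 0 lower, beside 1.01% and 0.754% of all 14067 genes. The median log2 difference was 0.04, beside -0.03 over all genes. *Mfsd2a*, the transporter that takes lysophosphatidylcholine carrying DHA into cells, gave 1.70, 1.86, 3.09 and 0.85 in WT and 3.79, 3.50, 4.40 and 4.25 in KO liver. All KO mice lay above all WT mice. It rose by 2.11 on the log2 scale, or 4.32-fold (standard error 0.43, adjusted p = 0.0973, exact permutation p = 0.0286). The call was lost without WT replicate 2 (adjusted p = 0.203) and with no filter on dim probes (adjusted p = 0.227), while the size of the change stayed at 2.11 in both.

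*Plaat3*, a phospholipase and acyltransferase of adipose and other tissues, gave -0.42, -0.10, 0.16 and -0.36 in WT and 0.38, 0.46, 0.85 and 0.27 in KO liver. It was called at 1.59-fold higher (log2 fold change 0.67, standard error 0.17, adjusted p = 0.147), close to the threshold. Without any 1 of WT replicates 1, 2 and 4 or KO replicates 1, 2 and 3 the call was lost, with adjusted p between 0.207 and 0.274. It was also lost with no filter on dim probes (adjusted p = 0.342) and under normexp background correction, where the log2 fold change of 0.55 was short of 1.5-fold. The acyl-CoA synthetases make the substrate of the acyltransferases. *Acsl5* was 1.48-fold higher (adjusted p = 0.0492), short of the fold threshold, and it passed both thresholds without WT replicate 2 or without KO replicate 2 (adjusted p = 0.111 and 0.104). *Acsl4*, which prefers ARA, was 0.32 higher on the log2 scale with an adjusted p of 0.369. *Acsl3* was 0.97 higher (adjusted p = 0.231), and the difference of *Acsl1* was -0.03 (adjusted p = 0.931). Also short of the fold threshold were *Pnpla7*, at 0.37 (adjusted p = 0.0742), and *Lpl*, at 0.54 (adjusted p = 0.0823). *Lclat1*, which acylates lysocardiolipin, differed by 0.01, with an adjusted p of 0.954. The genes of this list that were not called were chosen for naming with their values known.

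Of 13 LXR targets, a list without *Lpcat3*, 12 were tested, 3 were called higher and 0 lower, with a median log2 difference of 0.10. Over all genes, 1.01% were called higher and 0.754% lower. *Pltp*, the phospholipid transfer protein, rose by 1.47 on the log2 scale (standard error 0.16, adjusted p = 0.0118). The other called genes, *Scd1* and *Srebf1*, are also SREBP1 genes. The rest of the tested list was not called. Log2 differences were 0.06 for *Abca1*, -0.05 for *Abcg1*, 0.28 for *Abcg5*, 0.03 for *Abcg8* and -0.12 for *Mylip*. They were 0.04 for *Nr1h3*, 0.14 for *Mlxipl*, 0.04 for *Smpdl3a* and 0.54 for *Lpl*. *Srebf1* was no longer called when any 1 array was omitted (adjusted p between 0.205 and 0.284), and *Scd1* was not called without WT replicate 2 (0.203) or WT replicate 3 (0.228). With no filter on dim probes neither was called (adjusted p = 0.377 for *Srebf1* and 0.22 for *Scd1*). The summed signal of the 12 was 0.90 to 1.14 of the WT mean in WT and 1.39 to 1.60 in KO mice, a sum that its brightest genes dominate. Of the 7 other genes of the MBOAT family, which includes *Lpcat3*, *Mboat1*, *Mboat2* and *Mboat7*, 5 were tested and 0 were called, with a median of 0.04.

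**Figure D5:**
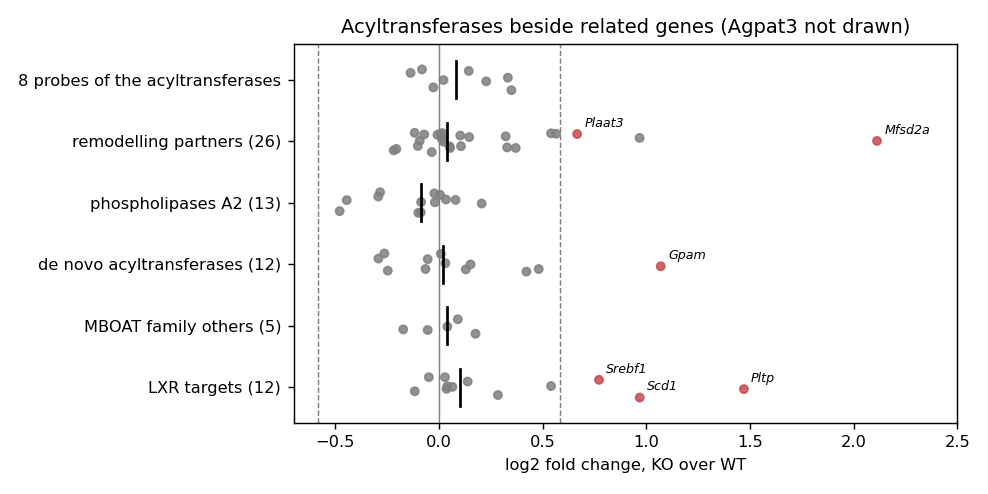
Log2 fold change, KO over WT (x axis), of the 8 tested acyltransferase probes and of the tested genes of 5 lists (y axis, with the number of genes drawn), red where called, with a black bar at the median and dashed lines at 1.5-fold. The acyltransferase probes lie between -0.14 and 0.35, and the called genes are *Mfsd2a*, *Plaat3*, *Gpam*, *Pltp*, *Scd1* and *Srebf1*, with *Agpat3* left out for its scale.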

How the data were processed

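The authors deposited the scanner output of each array, in which the processed signal of a spot is a background-corrected intensity on a linear scale (Feature Extraction 10.7.1.1), and 1 table of log2 values. The deposited log2 values were checked against the intensities and matched their log2 minus the 75th percentile of the array up to a constant of 0.0029 to 0.0085 per array. Samples were grouped by the genotype in their labels. Control spots and outlier spots (86 to 150 per array) were left out, spots of a probe were averaged, and no spot was saturated. P75 lay between 261 and 309 intensity units. The number of arrays limits the precision.

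WT and KO were compared in limma 3.58.1 (lmFit, then eBayes; R 4.3.3) on all 8 arrays (two-sided, Benjamini-Hochberg over the 29069 probes tested). The thresholds are those of the study's volcano plot, whose legend leaves unsaid if p was adjusted. A gene was read from its brightest probe. Single values were also tested by exact permutation over all 70 assignments of mice. Symbols came from RefSeq (GRCm38.p6) and matched 32994 of 56605 probes. The scanner output names mm9, so gene positions are not given and the promoter windows carry the RefSeq build. The code was tested on simulated data.

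The members and gene lists were chosen with earlier results of these data known. Named are all members, *Agpat3*, called genes of the lists, the 3 genes most correlated with *Lpcat3*, and others where the text says so. No source says that mice with the same replicate number are paired, and their arrays share a column of the slide. Alternatives were normexp (offset 50), quantile, median, the deposited log2 values, filters, outlier spots kept, eBayes with trend, a replicate block, each array left out, other thresholds and an unpaired t test. Cross-hybridization between related genes was not tested.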

Additional observations from a re-analysis of the deposited data

Results flagged for a closer look

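Among 30 sets of 4 arrays checked (the acyltransferase probes and *Agpat3*, each genotype), 4 had 1 mouse far from the rest, where chance alone marks about 1 set in 20. For *Lpcat3* this was WT replicate 4, with 5.78 against 5.28 to 5.35 in the remaining WT livers. For *Lpcat2* it was KO replicate 1, with -1.88 against -1.05 to -0.99 in the remaining KO livers. *Mboat1* read -4.30 in KO replicate 2, where it was not well above background, against -3.57 to -3.44 in the remaining KO livers. The dimmer *Agpat3* probe read 3.68 in WT replicate 3, against 3.56 to 3.58 in the remaining WT livers.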

How the results depend on the processing

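No acyltransferase gene or probe was called under any alternative. *Lpcat3* and *Lpgat1* stayed above 0 and *Lpcat4* below 0 throughout. With 1 array left out, *Lpcat2* ranged from -0.247 (without WT replicate 1) to 0.0795 (without KO replicate 1), and *Mboat7* from -0.0626 (without WT replicate 3) to 0.0026 (without WT replicate 2), so that the sign of both turned. Over the whole table, 273 probes were called higher and 211 lower. The counts were 122 and 131 with no filter on dim probes, 82 and 35 at an adjusted p under 0.05, 557 and 645 with no minimum fold change, 100 and 60 at a fold change over 2, and 534 and 451 at an unadjusted limma p under 0.2. The lower count was 66 under normexp on the median spot signal, the files holding no mean, and 125 when probes had to be above background on each of the 8 arrays. With 1 array left out, between 152 and 334 were called higher and between 105 and 311 lower. The replicate block gave 327 and 265, and 0 acyltransferase probes. With this block the brightest *Lpcat3* probe had a standard error of 0.08 and a limma adjusted p of 0.179. That is under 0.2, but its difference stayed short of 1.5-fold. The other *Lpcat3* probe had a limma adjusted p of 0.251 with the block. Deviations of same-numbered mice, whose arrays share a slide column, correlated at 0.33, -0.11, 0.10 and 0.32. In 3 of 4 the own number correlated best, and in replicate 2 it did not. The numbers were not taken as pairs in the reported comparison, because no source names them so. An effect of the slide column is therefore not removed there. The cause of these shifts was not tested. Signal over background limits *Lpcat1*, *Mboat1* and *Mboat2*.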

Other observations

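The phospholipases A2 make the lysophospholipids that the acyltransferases use. Of 24 listed, 13 were tested and 0 were called, beside 1.76% of all genes, with a median log2 difference of -0.09. *Pla2g12a*, a secreted phospholipase, gave 1.51, 1.52, 1.53 and 1.82 in WT and 1.01, 1.098, 1.24 and 1.24 in KO liver, a log2 difference of -0.44 (limma adjusted p = 0.11) that was short of the fold threshold. *Pla2g4c*, a cytosolic phospholipase, was well above background on 4 WT arrays and on 0 KO arrays. It entered the test only through the WT arrays, the genotype where it was higher, so no adjusted p is given. Its log2 difference of -0.48 shrank to -0.09 under normexp background correction, so no size of change is read from it at this dim signal. It still counts among the 13 tested and in their median. These genes were named with their values known.

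The de novo pathway builds new glycerolipids in front of the Lands cycle. Of its 13 listed acyltransferases, all 13 were tested, 1 was called higher and 1, *Agpat3*, lower, beside 1.01% and 0.754% of all genes. *Gpam*, which starts the pathway by acylating glycerol phosphate in mitochondria, gave 4.79, 5.26, 5.15 and 5.39 in WT and 5.99, 6.34, 6.37 and 6.16 in KO liver, with no overlap. It rose 2.10-fold (log2 fold change 1.07, standard error 0.14, limma adjusted p = 0.0283, exact permutation p = 0.0286). *Agpat1*, *Agpat2*, *Agpat4* and *Agpat5*, of the same enzyme family as *Agpat3*, were not called, with log2 differences between -0.26 and 0.15.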
